A study of Homo sapiens with 3 samples.

Results

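RAB proteins are small GTPases that sit on membranes in their GTP-bound state and recruit motors, tethers and fusion factors, so that each membrane compartment carries its own set. Exchange factors load them with GTP, GTPase-activating proteins return them to the GDP-bound state, and dissociation inhibitors take that form off the membrane. In endocrine cells RAB3 and RAB27 proteins sit on hormone granules and act in granule docking and release, while other members serve the endoplasmic reticulum, the Golgi, endosomes and lysosomes.

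RAB transcripts were counted by single-cell RNA sequencing in droplets, from islets differentiated from the established human embryonic line HUES8. A magnetic sort had divided the cells by surface CD49a, the integrin subunit encoded by ITGA1. Cells that carried CD49a, cells depleted of it and unsorted cells were then each cultured as new aggregates for 7 days and dispersed for sequencing, with 1 library per group. No genetic change or drug was labelled, and all 3 groups share the line, the differentiation protocol and the re-aggregation, so the groups describe 1 line made in 1 protocol. A gene belonged to the set when its symbol was RAB, a digit and an optional further digit or letter. Of 36601 genes in the files, 76 symbols start in that way; 13 were left out as regulators, binding partners, antisense or other transcripts, which left 63 RAB genes. All 63 were found by gene identifier in the GENCODE annotation on GRCh38, each as a protein-coding gene.

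The files held 4512 CD49a-positive, 2566 CD49a-negative and 2811 unsorted barcodes, with library totals of 127119509, 88397368 and 114479071 UMIs (unique molecular identifiers) in that order. A minimum of 1000 genes and a ceiling of 20% mitochondrial UMIs left 2394, 1976 and 2256 cells, with medians of 48538.5, 36997 and 42361 UMIs. Pairs of libraries shared 2 to 6 barcode sequences. Clusters found without the RAB genes were named from marker genes as INS-rich, GCG-rich, SST-rich or TPH1-rich, after the beta, alpha, delta and enterochromaffin cells whose markers they carry. INS-rich cells made up 65.5% of kept CD49a-positive cells, 20.4% of CD49a-negative cells and 33.2% of unsorted cells, and TPH1-rich cells 3.26%, 19.4% and 19.5%. The SST-rich class was 1 cluster, which also carried the epsilon cell hormone GHRL and 4 of 10 alpha cell markers above other cells, so it is not a pure delta cell group. In the named classes the summed markers of other cells reached at most 3.08 CPM for acinar, 35.1 for mesenchymal, 22.2 for endothelial, 7.25 for pluripotent and 30.04 for hepatic and intestinal cells. Duct markers reached 183 CPM in SST-rich cells, and neural markers 98.1 to 183 CPM over the classes. Summed endocrine progenitor markers were higher, at 321 to 618 CPM over the classes, and proliferation markers reached at most 22.7 CPM. Between 17.7 and 24.4% of kept cells per library stayed in unnamed clusters, the largest of which mixed TPH1, FEV and INS.

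Levels are given as CPM, the UMIs of a gene scaled to counts per 1e6 UMIs, summed over the cells of a class in a library. With 1 library per group there is no replicate, no test was made, and all intervals are 95% exact intervals that cover counting error only. A ratio is the log2 of the class CPM over the mean CPM of the other 3 classes, with 10 CPM added to each side, so that changes of low genes come out too small. A gene entered a class comparison with at least 10 CPM and 50 UMIs on the higher side in all 3 libraries, and it was called higher or lower when it was past 1.5-fold the same way in all 3. Of the 63 RAB genes, 49 reached 10 CPM and 50 UMIs in a class of any library. The other 14 were RAB6C, RAB6D, RAB7B, RAB19, RAB20, RAB23, RAB24, RAB31, RAB38, RAB40A, RAB41, RAB42, RAB43 and RAB44. RAB41 had 0 UMIs in all libraries. RAB6C and RAB6D are near copies of RAB6A, so their UMIs, 189 and 185 in all, cannot be assigned with certainty. UMI levels were not scaled by transcript length, and each gene is therefore compared with itself across cells and not with other genes.

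The summed RAB level was highest in TPH1-rich cells. All RAB genes together gave 4489 CPM in CD49a-positive TPH1-rich cells, 4666 in CD49a-negative and 4729 in unsorted ones. In the other classes the sum lay between 3300 CPM (CD49a-positive GCG-rich cells) and 3700 CPM (CD49a-positive SST-rich cells). RAB3B and RAB3C together held 31.1 to 34.9% of RAB UMIs in TPH1-rich cells and 12.4 to 17.3% in the other classes. Without them the sum was 3012 to 3215 CPM in TPH1-rich cells and 2831 to 3079 CPM elsewhere, ranges that overlap.

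Among the role groups, RAB genes of regulated exocytosis had the largest median difference between the classes. For their 8 members, all of which passed the minimum, the median ratio of the highest to the lowest class mean was 2.96-fold. In this group 1 member, RAB3D, stayed under 1.5-fold. The groups were chosen with earlier results of these data known, so their ranking is a description only. The widest single range, 22.7-fold, was outside the group, for the low gene RAB34. Over all 49 RAB genes that passed, the median was 1.39-fold and 63.3% stayed under 1.5-fold. Over all 11628 genes that passed in the same way the median was 1.41-fold and 58.6% stayed under it, so the RAB genes as a whole sat near the genome-wide figures.

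**Figure D1:**
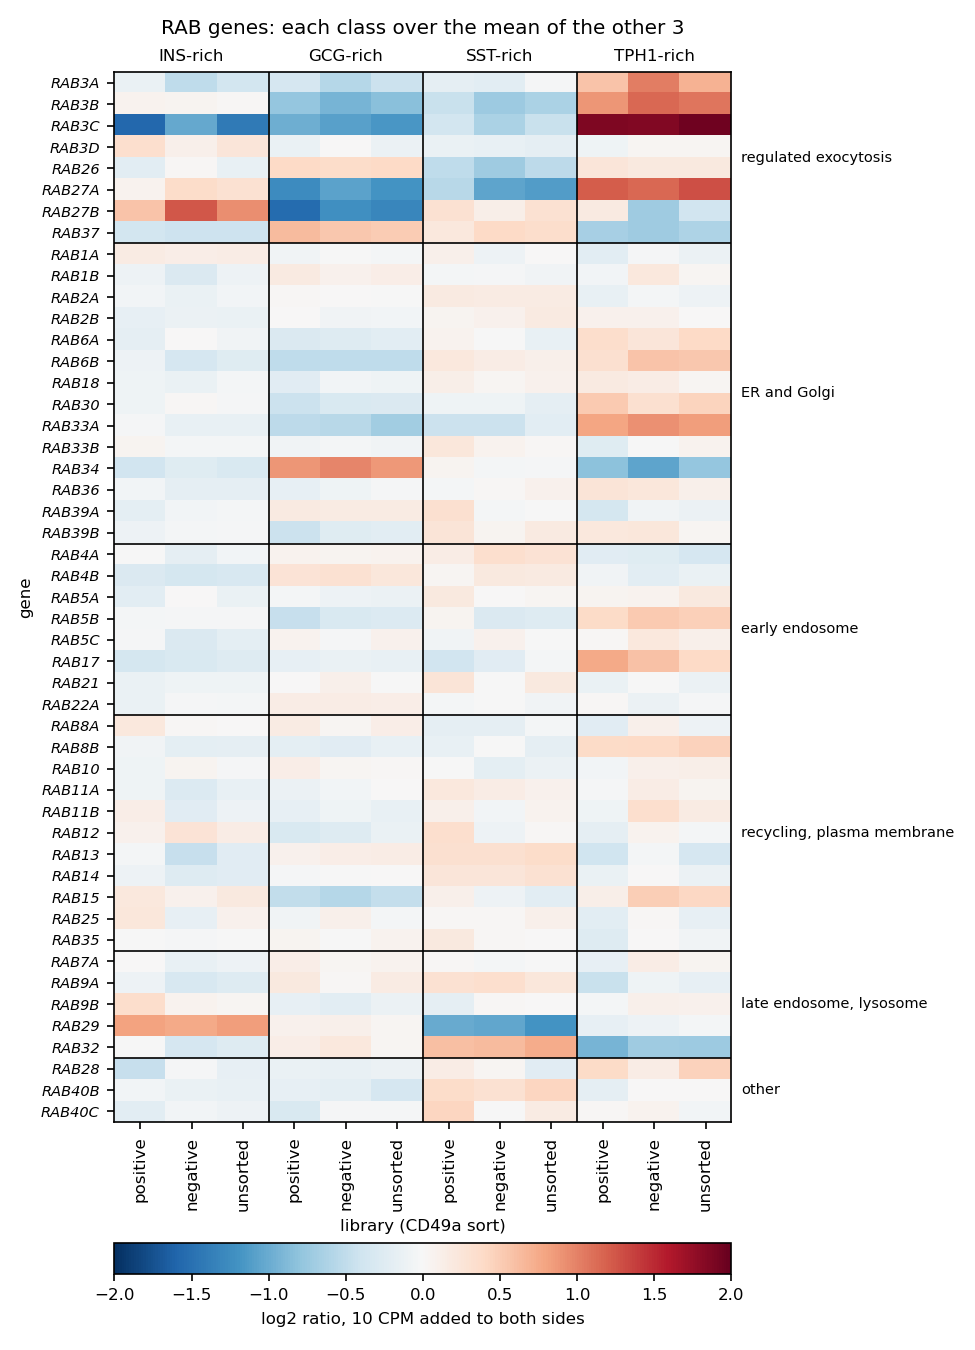
Each row is 1 of the 49 RAB genes that passed the minimum, grouped by role, and each column is 1 class in 1 library; the colour is the log2 ratio of the class over the mean of the other 3 classes, with 10 CPM added to both sides. Strong colours sit mainly in the exocytosis rows (RAB3B, RAB3C, RAB27A, RAB27B), with RAB33A, RAB34, RAB29 and RAB32 in the other groups, and most remaining rows are near 0 in all 12 columns.

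The exocytosis genes RAB3B, RAB3C, RAB27A and RAB27B were each called lower in GCG-rich cells against the mean of the other classes. That mean includes the TPH1-rich class, where RAB3B, RAB3C and RAB27A were high. Within each library RAB3B, RAB27A and RAB27B were nonetheless lowest in GCG-rich cells. RAB3C was lowest in INS-rich cells in the CD49a-positive and unsorted libraries. Of the 4 genes, RAB27B alone had a GCG-rich range apart from that of every other class. Their promoters, from 250 bases before to 50 after the start, are shown because these genes carry most of the exocytosis calls. They come from the RefSeq table on GRCh38.p14, printed 5′ to 3′ in the direction of transcription. Where a gene has several starts (RAB27A 5, RAB27B 2), the most upstream one is shown. Capitals mark exact matches, on either strand, to the 5 motifs searched: GGGCGG (GC box), CCAAT, CCGGAAGT (ETS site), TGAGTCA (AP-1 site) and TGACGTCA (CRE). The 5 motifs do not contain one another.
RAB3B (chr1:51990651-51990950, minus strand): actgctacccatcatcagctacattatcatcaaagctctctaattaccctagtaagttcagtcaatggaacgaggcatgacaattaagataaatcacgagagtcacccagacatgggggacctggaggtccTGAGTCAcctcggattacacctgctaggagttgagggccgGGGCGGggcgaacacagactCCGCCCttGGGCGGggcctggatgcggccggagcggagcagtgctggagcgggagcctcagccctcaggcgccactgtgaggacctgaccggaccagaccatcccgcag
RAB3C (chr5:58582825-58583124, plus strand): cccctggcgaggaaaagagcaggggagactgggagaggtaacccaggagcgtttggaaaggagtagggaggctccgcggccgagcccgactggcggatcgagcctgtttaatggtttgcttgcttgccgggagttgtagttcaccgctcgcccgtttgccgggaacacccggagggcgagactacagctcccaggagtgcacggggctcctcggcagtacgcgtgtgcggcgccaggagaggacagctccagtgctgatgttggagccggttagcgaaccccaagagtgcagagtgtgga
RAB27A (chr15:55319074-55319373, minus strand): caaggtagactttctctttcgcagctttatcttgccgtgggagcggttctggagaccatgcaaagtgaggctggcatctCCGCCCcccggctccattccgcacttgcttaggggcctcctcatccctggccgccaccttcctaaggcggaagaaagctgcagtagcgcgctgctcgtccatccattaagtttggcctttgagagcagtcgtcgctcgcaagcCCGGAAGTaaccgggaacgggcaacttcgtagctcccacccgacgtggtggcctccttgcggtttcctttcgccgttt
RAB27B (chr18:54717607-54717906, plus strand): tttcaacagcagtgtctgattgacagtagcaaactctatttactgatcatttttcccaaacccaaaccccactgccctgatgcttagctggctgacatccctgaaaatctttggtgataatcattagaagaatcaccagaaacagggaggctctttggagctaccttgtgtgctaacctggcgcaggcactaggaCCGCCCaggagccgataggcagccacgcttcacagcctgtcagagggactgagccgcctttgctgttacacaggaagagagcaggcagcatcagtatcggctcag

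RAB3B had 3 GC boxes and 1 AP-1 match, RAB27A 1 GC box and 1 ETS match, RAB27B 1 GC box, and RAB3C none. Among all 35116 promoters in the table, a GC box was in 45.0%, CCAAT in 34.6%, the ETS site in 4.14%, the AP-1 site in 4.95% and the CRE in 1.85%. Of the 63 RAB genes, 50 had an entry, with 71 promoters, 73.2% of which held a GC box. GC content was 58.7% for RAB3B, 63.3% for RAB3C, 59.3% for RAB27A and 51.0% for RAB27B, against a median of 58.7% over all promoters. None of the 5 motifs was in all 4 promoters, and a match is a description of the letters only.

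RAB3C, a RAB3 form found on granules of neurons and endocrine cells, marked TPH1-rich cells. Its gene spans 277174 bases on chromosome 5 (58582221 to 58859394, plus strand; GENCODE on GRCh38). In TPH1-rich cells it had 919 CPM in the CD49a-positive library (interval 883 to 957), 816 CPM in the CD49a-negative (800.1 to 832) and 997 CPM in the unsorted library (981 to 1013). SST-rich cells followed with 339, 258 and 341 CPM in the same order of libraries. All TPH1-rich values lay above all others, and SST-rich values lay above those of the last 2 classes. GCG-rich cells had 235, 196 and 221 CPM and INS-rich cells 161, 203 and 188 CPM; these ranges overlap. RAB3C was 3.72- to 3.99-fold higher in TPH1-rich cells than the mean of the other classes (log2 ratios with 10 CPM added 1.87, 1.85 and 1.95). It was lower in INS-rich cells (log2 -1.57, -1.02 and -1.42) and in GCG-rich cells (log2 -0.98, -1.08 and -1.17).

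RAB3B, another granule RAB3, followed the same leading class but a different order. TPH1-rich cells had 558 CPM (CD49a-positive), 636 CPM (CD49a-negative) and 654 CPM (unsorted). INS-rich cells came next with 377, 380 and 400 CPM, then SST-rich cells with 282, 244 and 277 CPM and GCG-rich cells with 234, 216 and 245 CPM. The SST-rich and GCG-rich ranges overlap, and the other neighbours do not. RAB3B was called higher in TPH1-rich cells (log2 0.88, 1.15 and 1.07) and lower in GCG-rich cells (log2 -0.77, -0.93 and -0.83).

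RAB27A, which in mouse beta cells is needed for normal glucose-stimulated insulin release, was also highest in TPH1-rich cells. It had 177 CPM there in the CD49a-positive library (161 to 194), 139 CPM in the CD49a-negative (133 to 146) and 158 CPM in the unsorted (151 to 164). INS-rich cells had 102, 94.9 and 99.5 CPM, and these did not overlap with any other class. The lead did not hold in every TPH1-rich cluster. The one of 219 cells led by CARTPT had 63.1, 87.9 and 88.0 CPM, below the INS-rich class in each library. SST-rich cells had 69.4, 38.3 and 39.7 CPM and GCG-rich cells 42.6, 37.8 and 37.8 CPM, so both classes overlapped. The gene was called higher in TPH1-rich cells (log2 1.20, 1.16 and 1.28) and lower in GCG-rich cells (log2 -1.26, -1.08 and -1.19). RAB27A overlaps PIGBOS1 on the same strand and PIGB on the other, so UMIs in the shared stretch are uncertain.

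RAB27B, the close relative of RAB27A on secretory granules, had its highest mean in INS-rich cells and its lowest in GCG-rich cells. INS-rich cells had 56.8 CPM (CD49a-positive), 57.7 CPM (CD49a-negative) and 50.1 CPM (unsorted). SST-rich cells had 48.8, 30.8 and 35.0 CPM and TPH1-rich cells 45.0, 16.0 and 21.5 CPM. GCG-rich cells had 10.6, 9.14 and 8.35 CPM, below every other class value. The INS-rich class was uneven, with clusters from 25.9 to 106 CPM when the libraries were pooled. Its lowest cluster, led by IAPP and RBP4, had 26.4, 27.7 and 24.0 CPM, below SST-rich cells in each library. The call was lower in GCG-rich cells (log2 -1.54, -1.23 and -1.31), and INS-rich cells were not called because the CD49a-positive ratio was under 1.5-fold. RNA of the INS-rich class carried into other droplets bears on the low end: INS itself was at 13.6, 16.4 and 16.6% of its INS-rich level in GCG-rich cells, and RAB27B at 18.7, 15.9 and 16.7%. In TPH1-rich cells RAB27B was at 79.3, 27.7 and 42.9% of its INS-rich level, with INS at 16.5, 8.69 and 10.0%. In SST-rich cells RAB27B was at 86.0, 53.5 and 69.9%, with INS at 25.5, 15.5 and 17.6%. The RAB27B shares thus lay near those of INS in GCG-rich cells and above them in the other classes; the part of carried RNA was not tested.

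The other 4 exocytosis members varied less or sat near the minimum. RAB26, known from exocrine granules, had 109, 116 and 117 CPM in GCG-rich cells and 100.1, 105 and 104 CPM in TPH1-rich cells. INS-rich cells had 77.0, 95.8 and 86.0 CPM and SST-rich cells 63.6, 60.5 and 68.6 CPM. No neighbouring ranges overlapped for RAB26, but no class reached 1.5-fold in all 3 libraries. RAB37, linked to regulated secretion, had 19.5, 24.5 and 20.5 CPM in GCG-rich cells, 14.1, 22.3 and 18.3 CPM in SST-rich cells and 7.82, 11.2 and 8.89 CPM in INS-rich cells. TPH1-rich cells had 5.04, 7.91 and 6.88 CPM from 13, 99 and 100 UMIs, and RAB37 was called lower there (log2 -0.66, -0.71 and -0.62). RAB3A, the main RAB3 of synaptic vesicles, had 21.0, 41.2 and 30.7 CPM in TPH1-rich cells and 9.59 to 18.7 CPM in the 9 other class values. Its TPH1-rich values were above all others but did not pass the rule, since the higher side had to reach 1.5-fold with 10 CPM added in every library. RAB3D, a granule RAB3 of exocrine and endocrine cells, had 51.5, 41.7 and 45.7 CPM in INS-rich cells and 34.6 to 40.3 CPM elsewhere, and it overlaps TMEM205 on the same strand.

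**Figure D2:**
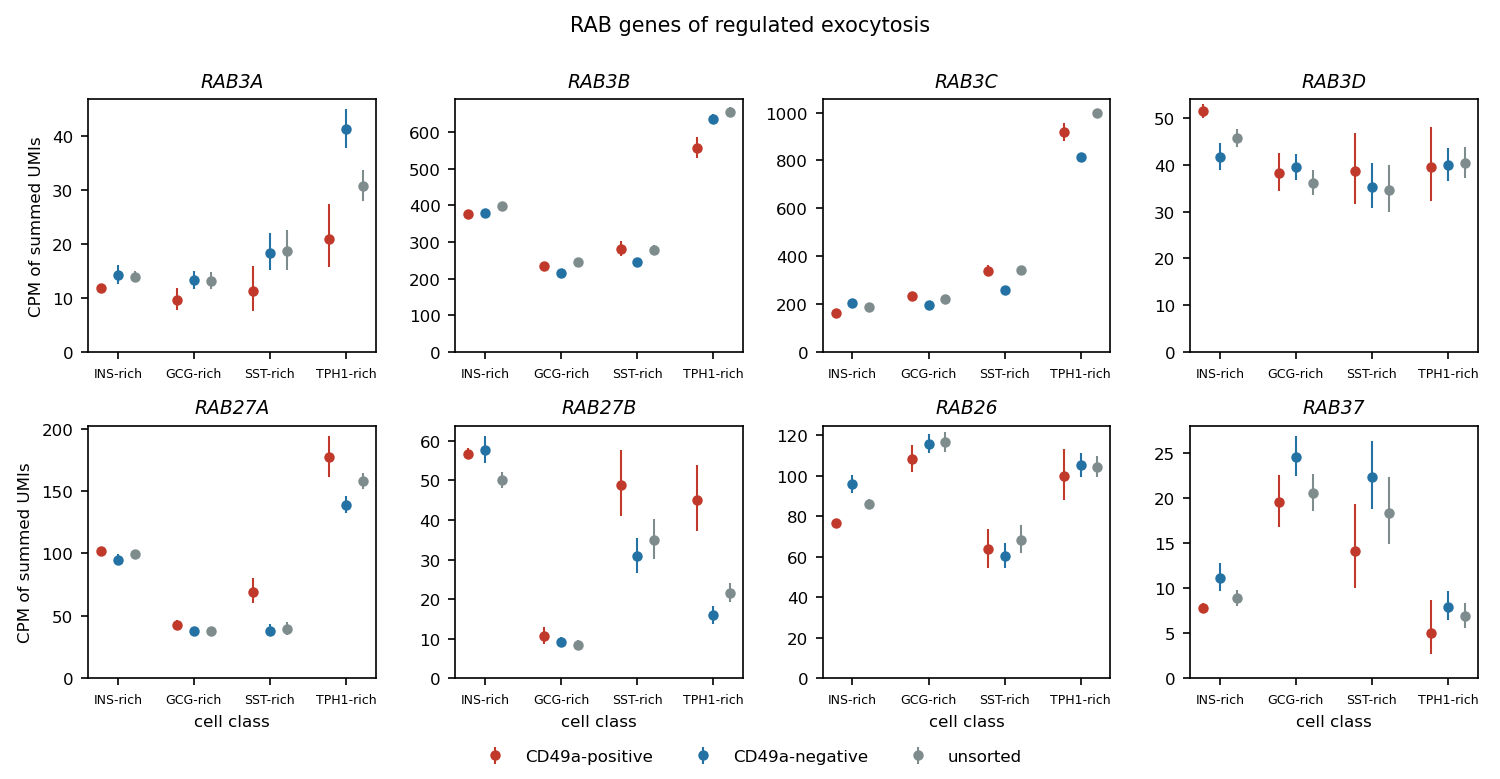
Each panel is 1 exocytosis RAB gene; points are CPM of summed UMIs in the 4 classes, red for the CD49a-positive, blue for the CD49a-negative and grey for the unsorted library, with 95% exact Poisson intervals of counting error. RAB3C reaches 816 to 997 CPM in TPH1-rich cells and at most 341 CPM elsewhere, while RAB27B is at 8.35 to 10.6 CPM in GCG-rich cells.

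Counts of called RAB genes were close to those of all genes in each class. In TPH1-rich cells 5 of 44 RAB genes tested were called (11.4%; all genes 11.4%): RAB3B, RAB3C and RAB27A higher (all genes 6.4%), RAB32 and RAB37 lower (all genes 5.01%). In GCG-rich cells 5 of 47 were called (10.6%, all genes 8.4%). RAB34 was higher (2.13% of RAB genes tested, all genes 2.51%). RAB3B, RAB3C, RAB27A and RAB27B were lower (8.51% of RAB genes tested, all genes 5.89%). In INS-rich cells 2 of 45 were called (4.44%; all genes 5.1%): RAB29 higher (all genes 1.98%) and RAB3C lower (all genes 3.12%). In SST-rich cells 2 of 44 were called (4.55%; all genes 4.96%): RAB32 higher (all genes 1.58%) and RAB29 lower (all genes 3.37%). The medians over the RAB genes tested, -0.09 (INS-rich), -0.06 (GCG-rich), -0.00 (SST-rich) and 0.05 (TPH1-rich) on the log2 scale, lay close to those over all genes tested, at -0.08, -0.05, 0.02 and 0.04. As counts, the RAB genes were therefore not set apart, and the results are in which members moved. RAB3C and RAB27A in TPH1-rich cells, RAB27A in GCG-rich cells and RAB3C in INS-rich cells were called under all 14 other settings. RAB32 in SST-rich cells and RAB37 in TPH1-rich cells were called under 6 of 14 each.

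Outside exocytosis, RAB29 and RAB32 of the late endosome and lysosome group were called in 2 classes each. RAB29, which acts at the trans-Golgi and lysosomes and recruits the kinase LRRK2, had 88.4, 81.3 and 82.7 CPM in INS-rich cells (CD49a-positive, CD49a-negative and unsorted). GCG-rich cells had 60.3, 56.5 and 53.4 CPM, TPH1-rich cells 51.2, 50.1 and 50.9 CPM and SST-rich cells 28.2, 25.5 and 21.6 CPM. The 4 ranges did not overlap, so the order of classes was the same in every library. RAB29 was called higher in INS-rich cells (log2 0.80, 0.76 and 0.84) and lower in SST-rich cells (log2 -1.004, -1.033 and -1.196). RAB32, which serves lysosome-related organelles, was highest in the class where RAB29 was lowest. It had 54.2, 70.5 and 65.8 CPM in SST-rich cells, 41.2, 55.8 and 44.2 CPM in GCG-rich cells, 37.8, 39.4 and 36.4 CPM in INS-rich cells and 18.6, 29.9 and 25.5 CPM in TPH1-rich cells. It was called higher in SST-rich cells (1.67-, 1.69- and 1.86-fold before the 10 CPM were added) and lower in TPH1-rich cells (log2 -0.93, -0.71 and -0.73). RAB7A, the main late endosome RAB, differed by 1.10-fold between its highest and lowest class mean, RAB9B by 1.27-fold and RAB9A by 1.49-fold.

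Among the Golgi and endoplasmic reticulum genes, RAB34 and RAB33A stood out. RAB34, which acts at the Golgi and in the formation of primary cilia, had 15.1, 21.0 and 15.8 CPM in GCG-rich cells, 6.87, 9.04 and 6.89 CPM in SST-rich cells and 3.33, 7.15 and 4.53 CPM in INS-rich cells. TPH1-rich cells had 1 UMI in the CD49a-positive library, 10 in the CD49a-negative and 16 in the unsorted, which is 0.39 (0.0098 to 2.16), 0.80 and 1.10 CPM. RAB34 was called higher in GCG-rich cells (log2 0.89, 0.98 and 0.86). RAB33A, a Golgi RAB also studied on vesicles of neurons, had 17.9, 23.2 and 21.8 CPM in TPH1-rich cells and 4.32 to 9.88 CPM in the 9 other class values; it was not tested because it missed the minimum in 1 library (46 UMIs). RAB30 and RAB36 also had TPH1-rich ranges above the rest, with means of 36.2 and 11.01 CPM there and 21.1 to 26.8 and 7.68 to 9.26 CPM in the other classes. RAB6B was lowest in GCG-rich cells, at a mean of 17.0 CPM, against 35.0 CPM in TPH1-rich cells. RAB1A and RAB2A, which carry traffic between the endoplasmic reticulum and the Golgi, differed by 1.16-fold each between class means, RAB18 and RAB33B by 1.15-fold each, RAB2B by 1.18-fold and RAB1B by 1.22-fold. RAB6A (1.39-fold), RAB39B (1.45-fold) and RAB39A (1.496-fold) lay between.

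Early endosome genes were mostly level. RAB5B, a RAB5 form of early endosome fusion, had 57.8, 62.3 and 59.1 CPM in TPH1-rich cells and 33.7 to 47.7 CPM elsewhere. RAB17, an epithelial RAB of apical recycling, had 28.3, 29.9 and 20.2 CPM in TPH1-rich cells and 11.6 to 18.03 CPM elsewhere. Neither was called, though all 3 TPH1-rich values lay above all others. RAB4B was lowest in INS-rich cells, at a mean of 16.3 CPM, and highest in GCG-rich cells, at 25.8 CPM. RAB5A, RAB5C, RAB21, RAB22A and RAB4A differed by 1.14- to 1.39-fold between class means. Recycling and plasma membrane genes were the flattest: 10 of 11 stayed under 1.5-fold. RAB15, an endosomal RAB known from neurons, was the exception, with 20.2, 30.3 and 29.3 CPM in TPH1-rich cells and 11.8, 13.2 and 14.8 CPM in GCG-rich cells, the lowest class in every library. RAB13, which acts at tight junctions, had 104, 134 and 128 CPM in SST-rich cells and 85.4, 85.8 and 90.9 CPM in INS-rich cells. RAB25 and RAB10 differed by 1.10-fold, RAB35, RAB8A, RAB11A and RAB11B by 1.17- to 1.19-fold, RAB14 and RAB12 by 1.30-fold each and RAB8B by 1.45-fold. Of the genes with other roles, RAB40B, part of a ubiquitin ligase, had 22.8, 23.2 and 23.9 CPM in SST-rich cells and 12.8 to 18.6 CPM elsewhere. RAB28, known from photoreceptors and cilia, had 113, 86.4 and 104 CPM in TPH1-rich cells and 69.3 to 99.8 CPM elsewhere, and RAB40C differed by 1.30-fold.

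**Figure D3:**
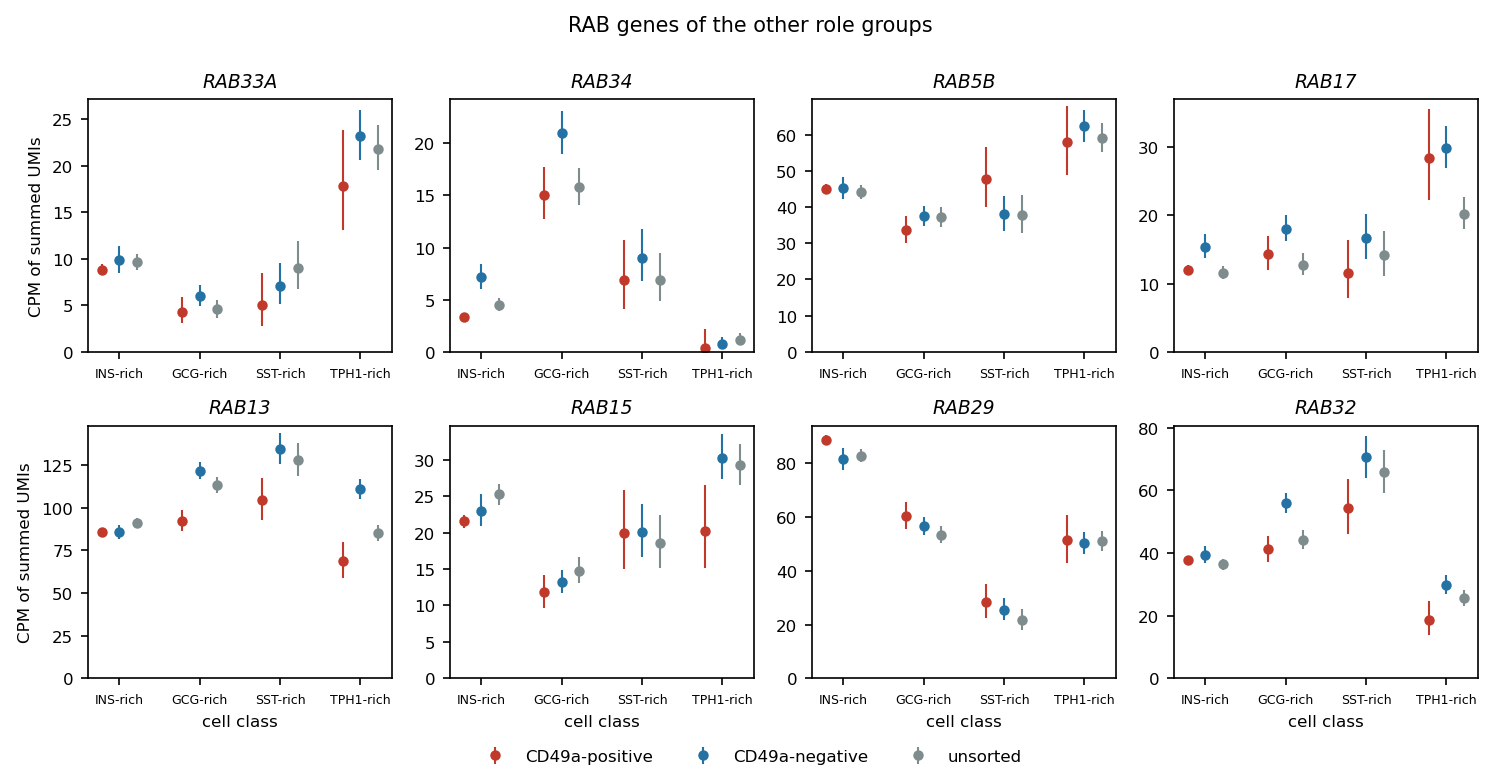
Each panel is 1 of the members with the largest class differences in the Golgi, early endosome, recycling and late endosome groups; points are CPM of summed UMIs in the 4 classes for the CD49a-positive (red), CD49a-negative (blue) and unsorted (grey) libraries, with 95% exact Poisson intervals of counting error. RAB29 lies between 81.3 and 88.4 CPM in INS-rich cells and between 21.6 and 28.2 CPM in SST-rich cells.

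Regulators and effectors of RAB proteins were called at shares no higher than those of all genes. Of 31 exchange factors, 31 GTPase-activating proteins, 7 genes of dissociation and prenylation, 17 exocytosis effectors and 32 other effectors listed, 87 to 93 were tested per class and 3 to 7 were called: 7.61% in GCG-rich cells (all genes 8.4%), 3.23% in INS-rich (5.1%), 3.45% in SST-rich (4.96%) and 8.05% in TPH1-rich cells (11.4%). CADPS2, which primes dense-core granules, was lower in TPH1-rich cells (21.0, 10.9 and 6.27 CPM, against 62.0, 59.2 and 49.98 CPM as the mean of the other classes) and in INS-rich cells (log2 -1.47, -1.19 and -1.14). It was higher in GCG-rich cells (95.2, 78.5 and 71.1 CPM, against 37.2, 36.7 and 28.4 CPM) and in SST-rich cells (log2 0.63, 0.96 and 0.83). MYRIP, the effector that links RAB27A to myosin on granules, was higher in SST-rich cells, with 81.0, 60.0 and 52.4 CPM, against 14.7, 12.6 and 13.4 CPM in the others. RIMS1, a RAB3 effector of the release site, was lower in GCG-rich cells, with 16.2, 14.4 and 16.8 CPM, against 82.6, 52.4 and 63.5 CPM in the others. TBC1D1, a GTPase-activating protein, was higher in TPH1-rich cells, with 68.7, 71.9 and 71.4 CPM, against 27.2, 21.3 and 21.9 CPM in the others. BICD1, a RAB6 effector that binds dynein, was higher there too (320.1, 289 and 362 CPM, against 165, 140.3 and 146 CPM). MYRIP was lower in GCG-rich cells (log2 -1.09, -1.09 and -0.74) and also in INS-rich cells (log2 -0.95, -0.61 and -0.79), the class with the highest mean of RAB27B.

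Members also varied among the clusters within a class. The clusters differed too in MALAT1, an RNA kept in the nucleus, and the members named here were picked after their values were seen. Among INS-rich clusters, the one led by PTH2R and CCSER1 had 17656, 16728 and 17456 CPM of MALAT1, and the one led by IAPP and RBP4 had 8959, 10070 and 10602 CPM (CD49a-positive, CD49a-negative and unsorted). RAB27B had 104, 109.8 and 109 CPM in the first and 26.4, 27.7 and 24.0 CPM in the second. RAB3C had 228, 286 and 306 CPM in the first and 113, 113 and 123 CPM in the second. The 2 clusters did not overlap in any library for these genes, which span 177657 and 277174 bases. RAB13, which spans 4742 bases, had 48.5, 45.5 and 49.7 CPM in the first and 116, 117 and 122 CPM in the second. RAB25, at 9355 bases, had 43.7, 48.6 and 44.6 CPM in the first and 86.4, 102 and 96.7 CPM in the second. By span, 0 of 8 members under 10 kb were higher in the first cluster (median log2 -0.48), and 5 of 7 members over 100 kb were (median log2 0.83). These counts cover RAB genes only. All genes of the same spans were not compared between the clusters, so the counts do not show a trait of RAB genes. RAB11A, at 165938 bases (mean log2 -0.45), and RAB2A, at 106771 bases (mean log2 -0.08), were the long members on the low side. What nuclear or intronic RNA adds was not tested, and the intron setting of the counting is not given in the sources used here.

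The TPH1-rich class had 4 clusters, of 585, 219, 62 and 34 cells, and the larger pair was compared in each library. The main cluster had 19409, 21869 and 21055 CPM of MALAT1, and the one led by CARTPT, CGA and TAC1 had 13382, 10690 and 12623 CPM. RAB3C had 972, 1024 and 1138 CPM in the main cluster and 704, 561 and 676 CPM in the CARTPT cluster, and RAB27A 196, 176 and 183 CPM and 63.1, 87.9 and 88.0 CPM. RAB3A, at 7291 bases, had 14.97, 20.8 and 19.6 CPM in the main cluster and 52.6, 67.3 and 57.9 CPM in the CARTPT cluster. RAB3B, at 82809 bases, ran with the short members here: it had 517, 592 and 596 CPM in the main cluster and 757, 673 and 764 CPM in the CARTPT cluster. RAB3A in the main cluster, at up to 20.8 CPM, was close to the 18.7 CPM reached in SST-rich cells. By span, 1 of 8 members under 10 kb and 5 of 7 over 100 kb were higher in the main cluster. RAB11A (mean log2 -0.83) and RAB2A (-0.39) were again lower. Here too, all genes of the same spans were not compared between the clusters. With libraries pooled, the cluster of 62 cells, also led by TAC1 and CARTPT, had 182 CPM of RAB27A, 827 of RAB3B and 794 of RAB3C, against 87.0, 714 and 614 CPM in the CARTPT cluster, so these clusters did not share 1 profile. The cluster of 34 cells had the highest RAB3A of the 4, at 113 CPM, and the lowest RAB3C, at 368 CPM. Its cells were shallow, with a median of 3688.5 UMIs, against 22276 to 34706 in the other TPH1-rich clusters. These values therefore rest on few UMIs. The CD49a-positive values of the CARTPT cluster come from 10 cells.

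Span also went with the class ratios. In TPH1-rich cells the median log2 ratio of all genes tested was 0.19 for genes over 100 kb (5th to 95th percentile -0.97 to 1.49) and -0.08 for genes under 10 kb (-0.80 to 0.50). In GCG-rich cells it was -0.11 and 0.00 for the same bins. RAB3C had a mean log2 ratio of 1.89 in TPH1-rich cells, outside that range, and RAB27A, with a span of 116148 bases, had 1.21, inside it; the part of span was not tested. MALAT1 itself was at 17112 to 18608 CPM in TPH1-rich cells, 18150 to 19009 CPM in GCG-rich cells, 20996 to 22553 CPM in SST-rich cells and 13337 to 14197 CPM in INS-rich cells.

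The sorted libraries were compared next, first over all kept cells. RAB27B and RAB3C were the 2 of 47 RAB genes called between CD49a-positive and CD49a-negative cells (4.26%; all genes 4.32%). RAB27B had 51.0 CPM in the CD49a-positive library and 25.6 CPM in the CD49a-negative, with 33.0 CPM in the unsorted; it was higher in CD49a-positive cells (log2 0.78, 1.99-fold, interval 1.90 to 2.09). RAB3C had 195 CPM in the CD49a-positive library and 327 CPM in the CD49a-negative, with 333 CPM in the unsorted; it was lower in CD49a-positive cells (log2 -0.72, 0.597-fold, interval 0.586 to 0.607). The class makeup moved with both: RAB27B is highest in INS-rich cells and RAB3C in TPH1-rich cells, whose shares differ between the libraries. Over the named classes alone, without the unnamed clusters, the log2 ratios were 0.67 for RAB27B and -0.81 for RAB3C. With the 4 named classes given equal weight in each library, RAB27B had 40.3 CPM (CD49a-positive) and 28.4 CPM (CD49a-negative), log2 0.39, and RAB3C 413 and 368 CPM, log2 0.16. Under equal weights RAB3C was on the other side of 0 and RAB27B was under 1.5-fold, so neither was called.

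Against the unsorted library, 1 of 46 RAB genes was called in CD49a-positive cells (2.17%; all genes 0.954%), again RAB3C (log2 -0.74, 0.585-fold, interval 0.575 to 0.595). With equal class weights its log2 was -0.08. Of 47 tested between CD49a-negative and unsorted cells, none was called (all genes 0.306%). The comparisons with CD49a-negative and with unsorted cells share the CD49a-positive library.

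Within INS-rich and GCG-rich cells no RAB gene passed 1.5-fold between CD49a-positive and CD49a-negative cells. None of 45 was called in INS-rich cells (all genes 0.382%), where log2 ratios of the exocytosis genes included -0.32 for RAB3C, -0.02 for RAB27B and 0.09 for RAB27A. None of 47 was called in GCG-rich cells (all genes 0.571%). There RAB3C had a log2 ratio of 0.25 and RAB27B of 0.11, and CD49a-positive cells came more from the cluster led by VEGFC and GRIN3A (65.7%, against 48.9% in CD49a-negative). RAB3C was thus lower in CD49a-positive INS-rich cells and higher in CD49a-positive GCG-rich cells, by less than 1.5-fold in each. The INS-rich clusters were shared out differently as well: the one led by PTH2R, where RAB3C was highest, held 28.1% of CD49a-positive and 34.7% of CD49a-negative INS-rich cells, and the one led by GNAT3, where it was lowest, 27.0 and 15.4%. Against unsorted cells none was called in INS-rich (all genes 0.0397%) or GCG-rich cells (all genes 0.213%). Between CD49a-negative and unsorted cells none was called in INS-rich, GCG-rich, SST-rich or TPH1-rich cells (all genes 0.147%, 0.175%, 0.77% and 0.598%).

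In SST-rich cells RAB27A was the 1 of 44 called (2.27%; all genes 5.91%). It had 69.4 CPM in CD49a-positive SST-rich cells from 192 UMIs, and 38.3 CPM in CD49a-negative ones from 237 UMIs (log2 0.72, 1.81-fold, interval 1.49 to 2.20). Against unsorted SST-rich cells, at 39.7 CPM, its log2 was 0.68, the 1 call of 45 (2.22%; all genes 2.99%). INS moved the same way, with 19857 CPM in CD49a-positive SST-rich cells, against 10797 CPM in CD49a-negative and 14851 CPM in unsorted ones. The part of INS-rich RNA or cells in it was not tested.

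In TPH1-rich cells 4 of 45 RAB genes were called between CD49a-positive and CD49a-negative cells (8.89%; all genes 7.45%). RAB27B had 45.0 CPM from 116 UMIs in CD49a-positive TPH1-rich cells and 16.0 CPM from 200 UMIs in CD49a-negative ones (log2 1.08, 2.82-fold, interval 2.22 to 3.56). Against unsorted TPH1-rich cells, at 21.5 CPM, its log2 was 0.81, the 1 call of 44 (2.27%; all genes 1.35%). RAB3A had 21.0 CPM in CD49a-positive and 41.2 CPM in CD49a-negative TPH1-rich cells (log2 -0.73, 0.508-fold, interval 0.377 to 0.674). RAB11B, a recycling RAB, had 48.9 and 82.8 CPM (log2 -0.66), and RAB13 68.7 and 111 CPM (log2 -0.62), in the same order. Other measures moved with these calls, and their part was not tested. INS was at 12815 CPM in CD49a-positive and 6058 CPM in CD49a-negative TPH1-rich cells. The CARTPT cluster made up 12.8% of CD49a-positive and 31.1% of CD49a-negative TPH1-rich cells. Gene span ran with the ratio, as described next.

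**Figure D4:**
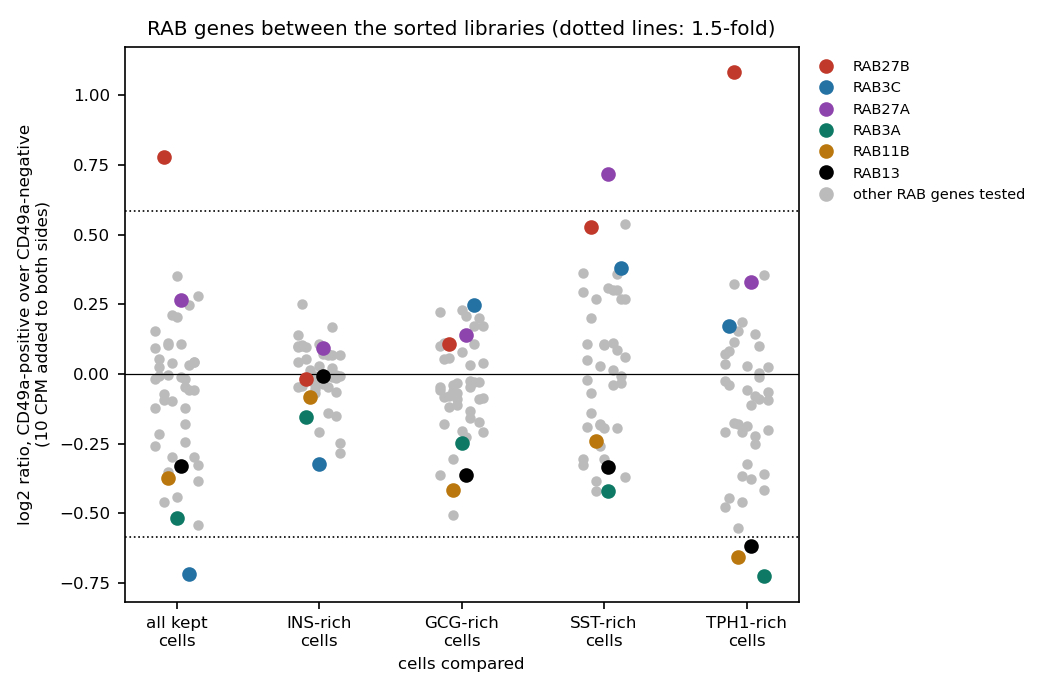
Each point is 1 tested RAB gene, placed by its log2 ratio of CD49a-positive over CD49a-negative CPM with 10 CPM added to both sides, over all kept cells and within each class; coloured points are the genes called in at least 1 column, and dotted lines mark 1.5-fold. RAB27B is at 0.78 over all kept cells, -0.02 in INS-rich cells and 1.08 in TPH1-rich cells, and RAB3C, at -0.72 over all kept cells, is inside the lines in every class.

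Across all genes tested, the ratio between the sorted libraries rose with gene span in every class but INS-rich. In TPH1-rich cells the median log2 ratio of CD49a-positive over CD49a-negative cells was -0.38 for genes under 10 kb, -0.23 for 10 to 30 kb, -0.01 for 30 to 100 kb and 0.25 for genes over 100 kb. In INS-rich cells these medians were -0.05, -0.03, -0.01 and -0.01. The RAB genes followed: in TPH1-rich cells their medians were -0.37 (7 genes), -0.15 (16 genes), -0.03 (15 genes) and 0.17 (7 genes). RAB3A, RAB13 and RAB11B, at 7291, 4742 and 14454 bases, sit on the low side, and RAB27B, at 177657 bases, on the high side. The 5th to 95th percentile of single genes was -0.28 to 0.64 in the bin of RAB27B (log2 1.08), -0.60 to 0.15 in that of RAB11B (-0.66) and -0.76 to -0.01 in that of RAB3A (-0.73) and RAB13 (-0.62). The part of span in these calls was not tested. Under the other settings the number of calls ran between 0 and 9, and RAB13 was called under 5 of 14, RAB11B under 8, RAB3A under 9 and RAB27B under 12. MALAT1 differed little, at 18414 CPM in CD49a-positive and 17112 CPM in CD49a-negative TPH1-rich cells.

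**Figure D5:**
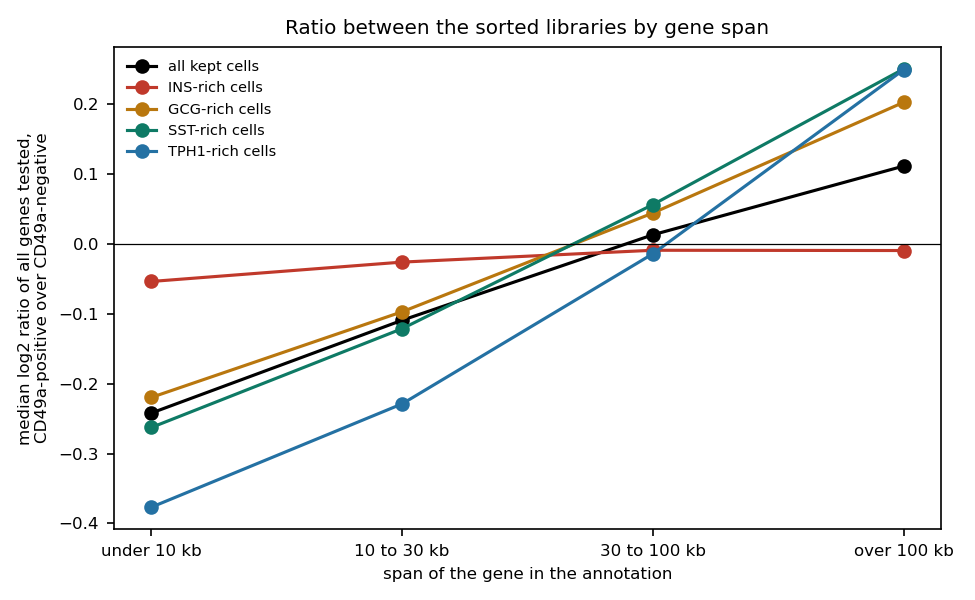
Points are the median log2 ratio of CD49a-positive over CD49a-negative CPM across all genes tested, by the span of the gene in the annotation, with 1 line for all kept cells and 1 for each class. The line for TPH1-rich cells climbs from -0.38 under 10 kb to 0.25 over 100 kb, and that for INS-rich cells stays between -0.05 and -0.01.

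Few regulators were called between the sorted libraries. RIMS1 and CADPS, which primes dense-core granules, were higher in CD49a-positive cells over all kept cells: RIMS1 had 76.9 CPM against 40.6 CPM in CD49a-negative cells (log2 0.78), and CADPS 1682 against 1073 CPM (log2 0.64). Both were also higher in SST-rich cells (RIMS1 log2 0.91, CADPS 0.69) and TPH1-rich cells (RIMS1 0.66, CADPS 0.63). Gene span ran with the ratio in both classes. For all genes over 100 kb the 5th to 95th percentile was -0.30 to 0.76 in SST-rich and -0.28 to 0.64 in TPH1-rich cells. Spans of the regulators are not given here, and the part of span in their calls was not tested. In TPH1-rich cells RABAC1, a prenylated RAB acceptor, was lower (159 CPM in CD49a-positive against 253 CPM in CD49a-negative cells, log2 -0.64). In INS-rich and GCG-rich cells none of the 5 regulator lists had a called gene.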

How the data were processed

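Single-cell RNA libraries of CD49a-positive, CD49a-negative and unsorted cells were analysed, 1 per group; the 3 are differently sorted samples of 1 line, not replicates. The authors deposited filtered matrices of UMI counts, made with Cell Ranger 7.1.0 on GRCh38 per the submitters' processing notes; the intron setting is not given in the sources used here, and a setting that counts introns raises long genes. All later steps started from these counts, in Python 3.11.15 with scanpy 1.11.5, numpy 2.4.6, scipy 1.17.1, pandas 2.3.3 and leidenalg 0.10.2. Kept cells had 1000 or more genes and no more than 20% mitochondrial UMIs. No doublet caller was run; cells with a second hormone were left out as an alternative.

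Clusters came from 2000 variable genes without the RAB genes, 30 principal components, 20 neighbours and Leiden at resolution 1. A class name needed at least 3 markers past 1.5-fold and a mean marker log2 ratio at least 0.3 above that of the next class. It also needed no other class's hormone or TPH1 at 25% or more of its top cluster. A cluster whose median UMIs, times 3, stayed below the median of each library needed a class marker among its 10 leading genes. This rule was chosen with the clusters in view. UMIs were summed per library and class, and called at 1.5-fold as the report states, with no p-values. Named with values in all 3 libraries are the 8 exocytosis genes, every called RAB gene and the 2 with the largest class ratios in each other role group; regulators are named where called, at most the 5 largest per comparison. The members and gene lists were chosen with earlier results of these data known. On simulated counts with 2-fold changes, the rule recovered 88 to 97% of changed genes in the class comparisons (INS-rich 97, GCG-rich 93, SST-rich 88, TPH1-rich 94). These counts had Poisson error only, around 1 profile shared by all classes and libraries, and the changed genes had a pooled level of at least 20 CPM. The shares therefore do not cover lower genes, mixed clusters or carried RNA, and do not give the recovery in the real classes. Gene spans and positions are from GENCODE on GRCh38, promoters from RefSeq on GRCh38.p14. Alternatives covered the pseudocount, the minimum level, scaling, cell filters, clustering and weighting. Shares and CPM carry counting error only.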

Additional observations from a re-analysis of the deposited data

Results flagged for a closer look

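Signals outside the comparisons of the report came from the barcodes that the cell filter left out, 2118 CD49a-positive, 590 CD49a-negative and 555 unsorted, with 4747341, 3829073 and 4373664 UMIs. Both were flagged because a RAB gene stood above the unsorted library in data that the report does not use. RAB4A, an early endosome recycling gene, had 55.8 CPM in CD49a-positive and 30.9 CPM in unsorted left-out barcodes (log2 0.69, or 0.687621 unrounded). RAB27B had 42.3 CPM in CD49a-positive and 16.5 CPM in unsorted left-out barcodes (log2 0.98, or 0.983969 unrounded). In the CD49a-negative left-out barcodes RAB4A had 24.5 CPM and RAB27B 14.1 CPM. Of all genes tested in these barcodes, 9.01% were past 1.5-fold in the comparison with unsorted and 11.8% in that with CD49a-negative barcodes. RAB3C was also past 1.5-fold there, and lower: 159 CPM in CD49a-positive left-out barcodes, against 439 CPM in CD49a-negative (log2 -1.41) and 472 CPM in unsorted ones (log2 -1.52). Of 42 RAB genes tested, these 3 were past 1.5-fold in each comparison (7.14%). These barcodes were not assigned to classes.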

How the results depend on the processing

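Each count of called RAB genes was computed again under other settings: 112 of 148 counts stayed within 1.5 times the reported one, and 36 did not. Of 302 values of named genes, 154 were scored as the same, 147 as moved and 1 as changed in sign. The sign change was RAB3C in CD49a-positive over CD49a-negative cells, with a log2 of 0.16 when the named classes were weighted equally. Under that weighting 0 RAB genes were called over all kept cells for CD49a-positive over CD49a-negative and 0 for CD49a-positive over unsorted; with the named classes alone the counts were 2 and 1. These weightings, the mixed cluster, clusters weighted equally and the second hormone were settings chosen after seeing the data. With 1 CPM added in place of 10, counts were 1 between CD49a-negative and unsorted cells, 2 between CD49a-positive and unsorted, and between CD49a-positive and CD49a-negative 6 over all kept cells, 5 in SST-rich and 7 in TPH1-rich cells; between classes they were 9 in GCG-rich and 4 in INS-rich cells. With 50 CPM added, CD49a-positive over CD49a-negative gave 1 over all kept cells, 0 in SST-rich and 0 in TPH1-rich cells, and the classes gave 3 (GCG-rich), 1 (INS-rich), 0 (SST-rich) and 3 (TPH1-rich). A larger or smaller addition shifts the ratio of low genes by construction; the cause of the other moves was not tested.

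With a minimum of 50 CPM, counts were 2 in TPH1-rich cells for CD49a-positive over CD49a-negative, and 3 each for the GCG-rich and TPH1-rich classes. With cells assigned one by one they were 2 in SST-rich and 2 in TPH1-rich cells for CD49a-positive over CD49a-negative, and 3 (GCG-rich), 1 (INS-rich), 0 (SST-rich) and 2 (TPH1-rich) for the classes. For CD49a-positive over CD49a-negative, cluster resolution 0.5 gave 2 in SST-rich and 1 in TPH1-rich cells, and leaving out cells with a second hormone gave 3 in SST-rich cells. In TPH1-rich cells the same comparison gave 2 with the cell filter loosened to 500 genes and 30% mitochondrial UMIs, 2 with each cell weighted equally, 1 with the mixed cluster counted in, and 9 with clusters weighted equally. The SST-rich class count was 1 under CPM without hormone and mitochondrial UMIs, resolution 0.5, the mixed cluster counted in and clusters weighted equally.

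Median-of-ratios scaling changed the share of higher calls among all genes from 38.9 to 50.7% (INS-rich), 32.0 to 20.7% (SST-rich) and 46.0 to 61.2% (CD49a-positive over CD49a-negative, all kept cells). CPM without hormone and mitochondrial UMIs moved the TPH1-rich median of all genes from 0.04 to -0.06 on the log2 scale. No paired analysis was possible because no test was made with 1 library per group; class ratios were taken within each library. The CD49a-positive SST-rich and TPH1-rich sums rest on 78 cells each.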
